A study of Mus musculus with 12 samples.

Results

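The effect of all-trans retinoic acid (ATRA), the active acid form of vitamin A, was examined in mouse CD8+ T cells that were activated again after a long exposure to tumour cells. The comparison held 6 of the 12 libraries of the series, 3 of the ATRA group and 3 of the control (CTRL) group, chosen by their labels and by no measured value. All 6 came from splenic CD8+ T cells of OT-I mice, whose transgenic T cell receptor recognises an ovalbumin peptide. The cells of both groups were expanded with antibodies to CD3e and CD28 and with IL-2, either with 5 ng/mL ATRA or with an equal volume of the solvent DMSO, and were kept for 5 days. Neither group received an additive during the following 72 h with GL261 mouse glioma cells that express chicken ovalbumin, at 1% oxygen. An anti-CD3e antibody was then given to both groups for 24 h, and live CD45.2+ cells were sorted for total RNA sequencing. ATRA was thus present before the co-culture and was not added at restimulation. The labels do not give the age of the mice, nor whether each library has its own mouse or culture. The p-values therefore measure the spread between these libraries, which may be technical.

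Retinoic acid binds retinoic acid receptors, which pair with retinoid X receptors on target genes. In T cells it is best known for imprinting the gut-homing receptors CCR9 and integrin alpha4beta7. Engagement of CD3, the signalling part of the T cell receptor (TCR), raises calcium and activates kinases, and the factors NFAT, AP-1, NF-kB, EGR and NR4A then turn on cytokine and activation genes. In exhausted T cells, after long stimulation by antigen, cytokine output falls and inhibitory receptors such as PD-1 and TIM-3 accumulate.

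The 6 libraries held 16288111 to 20115836 counts, and 3 counts, taken as the detection floor, corresponded to 0.151 to 0.183 CPM (a gene's counts scaled to library size by the TMM method). Levels are given in these CPM and are compared between libraries for the same gene only, since they are not corrected for gene length. Across genes, log CPM correlated at 0.976 to 0.984 within a group and at 0.871 to 0.887 between groups. The CTRL libraries were more spread than the ATRA libraries, with a median coefficient of variation per gene of 11.5% against 7.31%. CTRL replicate 3 differed by at least 2-fold from the mean of the other 2 CTRL libraries in 115 of 10280 genes with at least 5 CPM in a group, against 93 genes for CTRL replicate 1, 60 for CTRL replicate 2 and 24 to 35 for the ATRA libraries.

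The labelled cell type was checked against its markers. The summed level of the 10 CD8 T cell markers ranged from 2466 to 2846 CPM over the CTRL libraries and from 2832 to 2908 CPM over the ATRA libraries. Cd8a, a chain of the CD8 co-receptor, was at 152, 172 and 189.9 CPM in CTRL and at 153, 149 and 151 CPM in ATRA, and the difference did not pass the test (log2 fold change -0.18, SE 0.08, adjusted p = 0.0642). Cd3e, the chain that the restimulating antibody binds, was at 174, 192 and 218 CPM in CTRL and at 188, 181 and 183 CPM in ATRA (log2 fold change -0.08, SE 0.08, adjusted p = 0.42). The groups overlapped for both genes. Other markers did differ, so the sum joins opposite moves. At an adjusted p under 0.05, 3 of the 10 were higher and 2 lower in ATRA. These shares were 30% and 20%, against 31.8% and 30.8% of all tested genes. Cd2 rose (log2 fold change 0.93, SE 0.06), while Lck (-1.01, SE 0.07) and Thy1 (-0.56, SE 0.07) fell. Cd4 and Foxp3, which define helper and regulatory T cells, were below 1 CPM in all 6 libraries.

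ATRA and CTRL differed in a large part of the transcriptome. Of 12783 genes tested, 7998 (62.6%) were called at an adjusted p under 0.05 by edgeR's quasi-likelihood test, 4067 (31.8%) higher and 3931 (30.8%) lower in ATRA. A difference of at least 2-fold was called for 3285 genes (25.7%), 1680 (13.1%) higher and 1605 (12.6%) lower. The median log2 fold change over all tested genes was 0.02. The 3 ATRA values lay all above or all below the 3 CTRL values for 8792 genes (68.8%). These shares are the background against which each gene list is read. Libraries with the same replicate number share a batch, per the labels, and 7959 of the 7998 called genes had the same sign in 3 of 3 batches. These signs come from the same 6 libraries that gave the calls, so they add no separate support. In bulk RNA, a change in the number of cells of a type and a change in RNA per cell cannot be told apart.

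**Figure D1:**
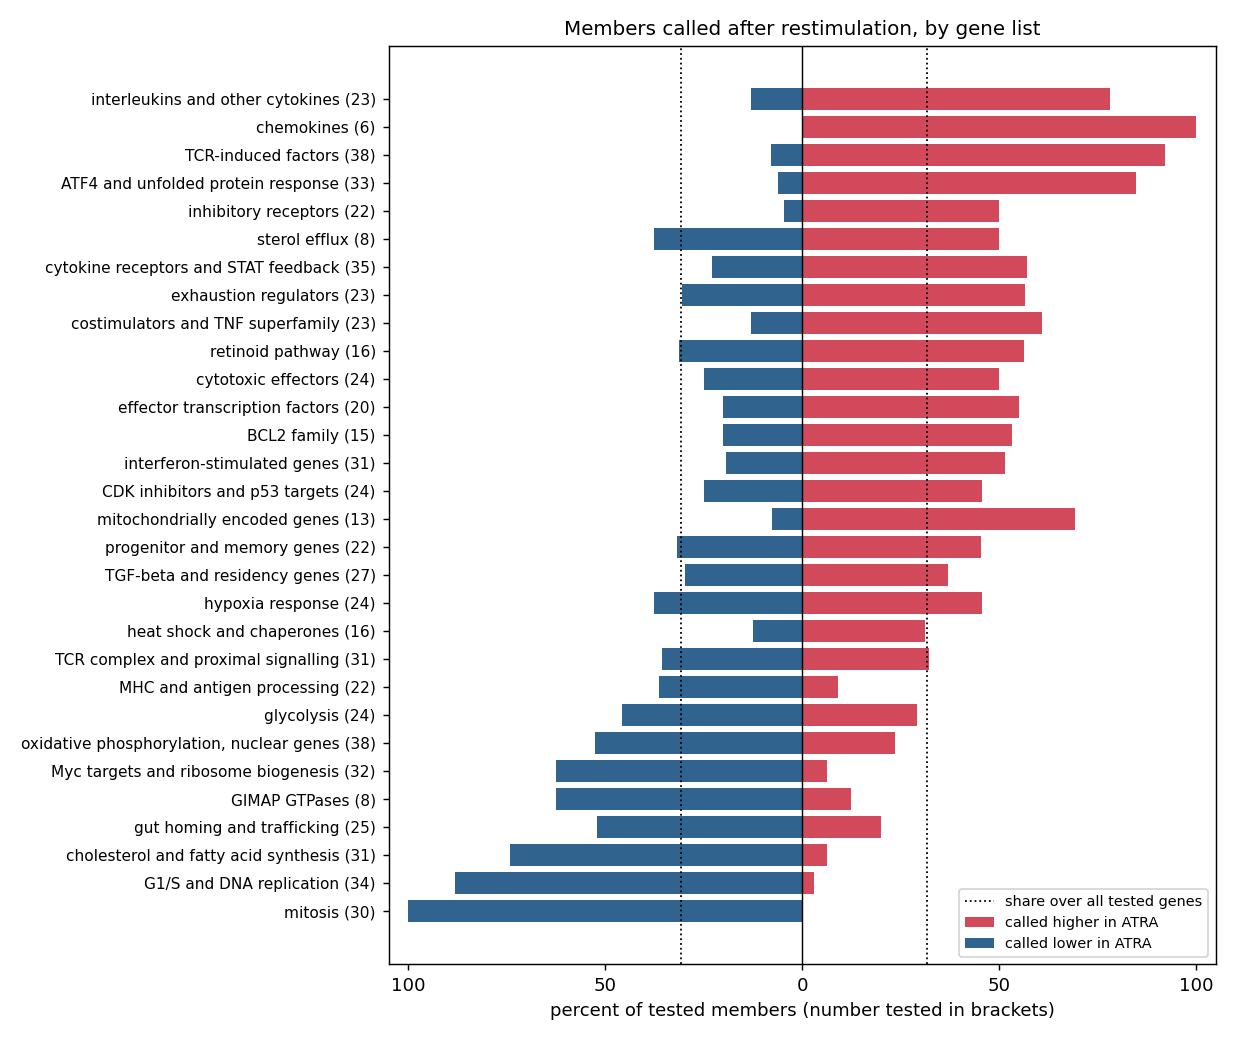
Percentage of the tested members of each gene list called higher (red, right) or lower (blue, left) in ATRA than in CTRL after restimulation, with the number tested in brackets and the lists ordered by median log2 fold change. Dotted lines mark the shares over all tested genes, 31.8% higher and 30.8% lower. All 30 mitosis genes were called lower, and 35 of 38 TCR-induced factors were called higher.

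Ccr9, the receptor for the gut chemokine CCL25 and a classical retinoic acid target, was detected in ATRA and not in CTRL. It had no count in any CTRL library and was at 100.4, 104 and 104 CPM in ATRA, at least 601-fold higher against a floor of 3 counts per library. The 2 groups thus divided by this gene as labelled. The retinoid genes as a list were mixed, with 9 of 16 tested members called higher and 5 lower (56.2% and 31.2%, background 31.8% and 30.8%). Their median log2 fold change was 0.61. The other 10 of the 26 listed did not pass the filter on low counts.

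Among carriers and enzymes, Crabp2, which delivers retinoic acid to its receptors, rose from 2.41, 1.53 and 1.24 CPM to 36.1, 31.3 and 32.2 CPM (log2 fold change 4.26, SE 0.21, adjusted p = 5.79e-09). Stra6, the membrane receptor for vitamin A uptake, rose from 2.75, 2.81 and 1.77 CPM to 34, 35 and 33.1 CPM (log2 fold change 3.8, SE 0.17). Aldh1a3, which oxidises retinal to retinoic acid, was at 0.112, 0 and 0 CPM in CTRL and at 6.44, 6.17 and 5.52 CPM in ATRA, a ratio of 159 with a 95% exact counting interval of 43.7 to 1319. No ATRA library of these 3 genes came near a CTRL library, and the CTRL counts of Aldh1a3 all lay in replicate 1. Of the receptors, Rara rose from 18.1, 20.5 and 23 CPM to 30.3, 26.9 and 31.7 CPM (log2 fold change 0.53, SE 0.12, adjusted p = 0.0025). Rarg was at 2.86, 3.36 and 2.96 CPM in CTRL and at 2.24, 2.56 and 2.31 CPM in ATRA and was not called (log2 fold change -0.37, SE 0.28, adjusted p = 0.282).

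Other genes of the naming rule differed in how far they moved. Acvrl1, a type I receptor of the TGF-beta family, rose from 0.281, 0.428 and 1.29 CPM to 70.4, 64.4 and 70.8 CPM (log2 fold change 6.64, SE 0.31, adjusted p = 1.39e-07). Tgm2, a transglutaminase and known retinoid target, rose from 0.449, 0.367 and 2.15 CPM to 7, 6.44 and 7.08 CPM (log2 fold change 2.76, SE 0.54, adjusted p = 0.00174). In both, CTRL replicate 3 was the highest control and lay below every ATRA library; without it the log2 fold changes were 7.57 and 4.03. P2rx7, an ATP-gated channel, was at 1.23, 1.59 and 5.27 CPM in CTRL and at 3.02, 3.24 and 2.56 CPM in ATRA. The groups overlapped, and P2rx7 was not called (adjusted p = 0.851), whereas without CTRL replicate 3 it was called higher (log2 fold change 1.05, adjusted p = 0.0229).

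Cytokine genes rose broadly. Of 27 listed, 23 were tested, 18 were called higher (78.3%) and 3 lower, and all of these calls were at least 2-fold. The median log2 fold change of the tested members was 3.79, or 3.3 with members that had no CTRL count set to their lower bound.

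The cytokines of type 2 helper cells were among those that rose furthest. Il4, a growth and class-switch factor for B cells, was at 0, 0 and 0.0538 CPM in CTRL and at 67.7, 76.4 and 65.3 CPM in ATRA, a ratio of 3684 with a 95% exact counting interval of 661 to 145528. Il5, which drives eosinophils, rose from 0.281, 0.183 and 0.108 CPM to 68.9, 67.7 and 64.4 CPM (log2 fold change 8.41, SE 0.2, adjusted p = 5.11e-11). Il13, which acts on epithelium and macrophages, rose from 14.3, 20.8 and 9.89 CPM to 554, 505 and 533 CPM (log2 fold change 5.15, SE 0.27, adjusted p = 2.02e-05). CTRL held 1 count of Il4 in 3 libraries, in replicate 3, while Il13 was present in each CTRL library. Gata3, the transcription factor that governs these genes, rose far less: it rose from 53.2, 65.1 and 69.2 CPM to 119, 111 and 118 CPM (log2 fold change 0.89, SE 0.1, adjusted p = 6.1e-06).

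The promoters of Il4, Il13, Il5 and Csf2 are shown because these genes rose together and all lie on chromosome 11. The windows are from RefSeq, build GRCm38.p6, and run from 250 bases before to 50 bases after the transcription start. Capitals mark the NFAT core GGAAA, or TTTCC where the core lies on the opposite strand. RefSeq lists 2 windows for Il4, and the one with more matches is shown.
Il4, chr11:53618616-53618915, minus strand: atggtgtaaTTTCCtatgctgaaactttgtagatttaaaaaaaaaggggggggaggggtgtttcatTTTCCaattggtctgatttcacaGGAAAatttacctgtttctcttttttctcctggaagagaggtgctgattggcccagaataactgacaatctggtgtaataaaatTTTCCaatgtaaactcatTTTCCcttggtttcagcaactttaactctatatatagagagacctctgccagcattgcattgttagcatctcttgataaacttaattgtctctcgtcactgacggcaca
Il13, chr11:53634653-53634952, minus strand: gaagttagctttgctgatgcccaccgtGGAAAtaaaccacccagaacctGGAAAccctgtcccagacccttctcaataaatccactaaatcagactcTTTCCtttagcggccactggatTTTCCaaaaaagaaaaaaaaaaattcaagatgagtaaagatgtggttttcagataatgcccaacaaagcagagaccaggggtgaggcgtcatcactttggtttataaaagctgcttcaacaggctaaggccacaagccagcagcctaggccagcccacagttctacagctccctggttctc
Il5, chr11:53720544-53720843, plus strand: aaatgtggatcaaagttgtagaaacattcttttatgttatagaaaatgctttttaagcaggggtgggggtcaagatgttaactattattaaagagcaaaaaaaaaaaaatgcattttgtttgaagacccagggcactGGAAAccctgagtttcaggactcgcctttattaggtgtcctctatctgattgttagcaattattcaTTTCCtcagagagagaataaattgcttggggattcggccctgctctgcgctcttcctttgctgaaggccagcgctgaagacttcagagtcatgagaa
Csf2, chr11:54249850-54250149, minus strand: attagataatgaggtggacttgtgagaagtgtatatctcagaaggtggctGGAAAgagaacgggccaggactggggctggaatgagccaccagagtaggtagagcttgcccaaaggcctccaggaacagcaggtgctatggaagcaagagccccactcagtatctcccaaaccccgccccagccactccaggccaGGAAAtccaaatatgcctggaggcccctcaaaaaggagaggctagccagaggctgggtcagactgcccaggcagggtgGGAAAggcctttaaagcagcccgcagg

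The core occurred 5 times in the Il4 window, 4 times in the Il13 window, 2 times in the Il5 window and 3 times in the Csf2 window. The Il4 window not shown held it 1 time, and the mean over all windows was 1.01. Of the 27 cytokine genes, 23 matched the promoter table by symbol, with 26 windows, and 24 windows (92.3%) held the core on either strand, against 61.3% of all 32851 windows and 59.1% of the windows of tested genes. The AP-1 motif TGANTCA, bound by FOS and JUN proteins, was in 6 cytokine windows (23.1%), against 7.81% of all windows. It was in none of the windows shown. The NF-kB consensus was in 4 of 11 chemokine windows (36.4%) and in 12 of 36 windows of TCR-induced factors (33.3%), against 4.51% of all windows. For TCR-induced factors the NFAT core was in 61.1% of windows and AP-1 in 5.56%, not above the shares of all windows. For chemokines these shares were 81.8% and 27.3%. A retinoic acid response element, searched on both strands as a direct repeat spaced by 1, 2 or 5 bases, was in 0 of the 26 cytokine windows, in 2 of 35 windows of retinoid genes (5.71%) and in 0.588% of all windows. These matches describe the letters of 300-base windows, with no test, and do not show binding.

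Colony and growth factors rose with the type 2 cytokines. Il3, a growth factor of blood progenitors, rose from 0.168, 0.122 and 0.43 CPM to 111, 119 and 123 CPM (log2 fold change 8.86, SE 0.2, adjusted p = 5.11e-11). Csf2, which encodes GM-CSF, rose from 22.1, 16.6 and 18.8 CPM to 273, 251 and 270.3 CPM (log2 fold change 3.79, SE 0.1, adjusted p = 7.82e-11). Areg, the EGF receptor ligand amphiregulin, rose from 0, 0.122 and 0.108 CPM to 60.7, 61.7 and 57.8 CPM (log2 fold change 9.51, SE 0.25, adjusted p = 7.82e-11). Il3 and Areg were near or below the floor in most CTRL libraries, whereas Csf2 was well above it. Without CTRL replicate 3, the highest control, the log2 fold change of Il3 was 9.57. Il10, an anti-inflammatory cytokine, rose from 0.112, 0.367 and 0.376 CPM to 80.6, 75 and 78 CPM (log2 fold change 8.06, SE 0.21, adjusted p = 5.94e-11). Il1a, an alarm cytokine, had no count in CTRL and was at 5.54, 5.6 and 5.17 CPM in ATRA, at least 31.8-fold higher.

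Ifng and Tnf, type 1 cytokines of killer T cells, rose too. Ifng, which encodes interferon gamma, rose from 57, 53.7 and 59.2 CPM to 379.7, 389 and 386 CPM (log2 fold change 2.77, SE 0.07, adjusted p = 5.82e-11). Tnf rose from 31.1, 35.9 and 31.2 CPM to 66.7, 65.6 and 68.3 CPM (log2 fold change 1.03, SE 0.1, adjusted p = 1.71e-06). The 3 ATRA libraries of each lay close together and above all CTRL libraries. Lta, which encodes lymphotoxin alpha and was chosen after its values were seen, was at 16.4, 15.6 and 15.7 CPM in CTRL and at 13.7, 12.5 and 15.5 CPM in ATRA and was not called (adjusted p = 0.233). Tbx21, the T-box factor that drives Ifng, was at 74.9, 89.5 and 77.7 CPM in CTRL and at 82.5, 73.8 and 77.4 CPM in ATRA, with overlapping groups (log2 fold change -0.05, SE 0.09, adjusted p = 0.638). Il2, the T cell growth factor, and Il21, which acts on B cells and CD8 T cells, did not pass the filter. Il2 had no count in CTRL and was at 0.672, 0.994 and 0.301 CPM in ATRA. The 3 cytokines called lower, named after their values were seen, were Ltb, Il16 and Mif. Ltb, which shapes lymphoid tissue, fell (53.7 to 88.2 CPM in CTRL, 7.05 to 9.31 CPM in ATRA), the chemoattractant Il16 fell (73.8 to 95.8 CPM in CTRL, 8.63 to 11 CPM in ATRA), and the inflammatory mediator Mif fell (408 to 566 CPM in CTRL, 215 to 254 CPM in ATRA).

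**Figure D2:**
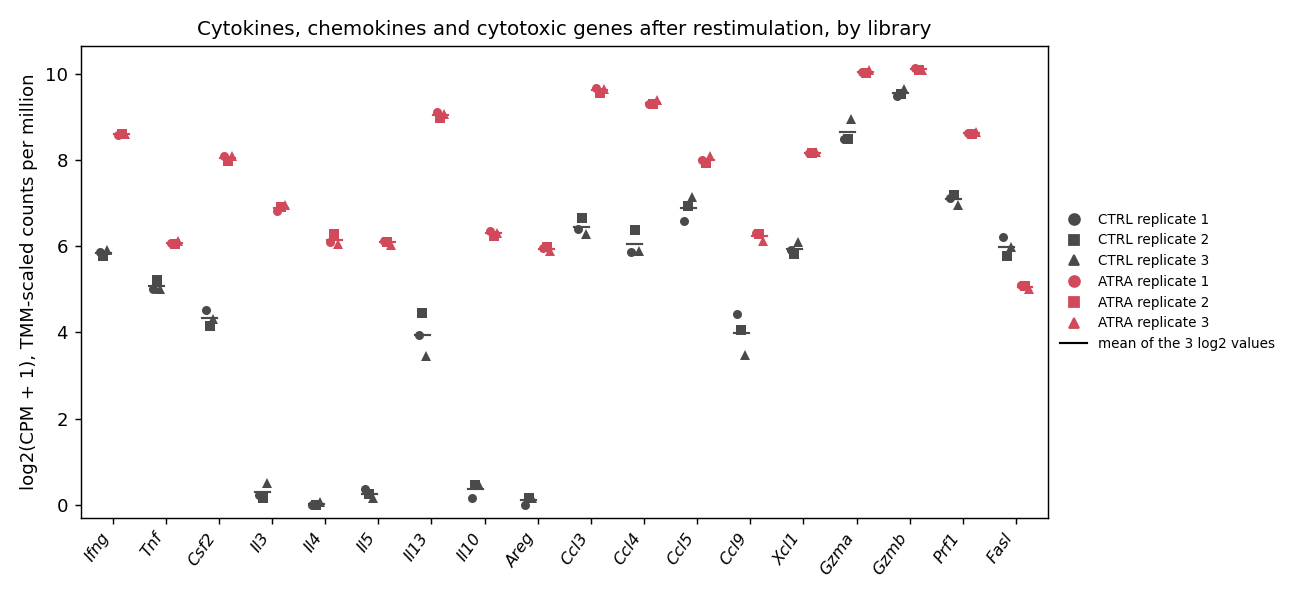
Levels of 18 cytokine, chemokine and cytotoxic genes in each of the 6 restimulated libraries, as log2(CPM + 1) on the vertical axis. Grey symbols are CTRL, red symbols ATRA, and bars the mean of the 3 log2 values; the ATRA libraries lay above the CTRL libraries for every gene shown except Fasl, and Il4, Il5, Il3, Il10 and Areg were near 0 in CTRL.

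Chemokines followed the cytokines. All 6 that passed the filter, of 15 listed, were called higher, with a median log2 fold change of 2.26, and the other 9 were below 1 CPM in every library. Ccl3, an inflammatory chemokine, rose from 83.7, 99.7 and 77.1 CPM to 818, 749 and 797 CPM (log2 fold change 3.18, SE 0.09, adjusted p = 2.18e-10). Ccl4, a close relative of it, rose from 57.4, 82.6 and 58.2 CPM to 629, 629 and 674 CPM (log2 fold change 3.29, SE 0.14). Xcl1, which attracts cross-presenting dendritic cells, rose from 58.8, 55.7 and 67.8 CPM to 284, 286 and 288 CPM (log2 fold change 2.23, SE 0.08). The groups did not overlap for any of these. Ccl9 rose (10.1 to 20.5 CPM in CTRL, 68.9 to 77.9 CPM in ATRA). Ccl5, an inflammatory chemokine of memory and effector T cells, rose least of the 5 named by the rule, from 94.5, 121 and 139.9 CPM to 253, 243 and 274 CPM (log2 fold change 1.12, SE 0.13).

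Genes that TCR signalling induces were higher almost throughout. Of 38 listed and tested, 35 were called higher (92.1%, against 31.8% of all tested genes), 33 of them by at least 2-fold, and the median log2 fold change was 1.93. Egr2, a zinc finger factor that restrains activated T cells, rose from 23.1, 27.8 and 17.7 CPM to 152, 146 and 150.4 CPM (log2 fold change 2.71, SE 0.14, adjusted p = 4.24e-08). Nr4a1, an orphan nuclear receptor used as a reporter of TCR signal, rose from 15.4, 13.2 and 9.78 CPM to 46.7, 53.2 and 52.9 CPM (log2 fold change 1.99, SE 0.15, adjusted p = 3.08e-07). Dusp6, a phosphatase that switches off ERK, rose from 9.71, 12 and 23.4 CPM to 215, 209.8 and 219 CPM (log2 fold change 3.83, SE 0.35, adjusted p = 0.000459). CTRL replicate 3 was the highest control for Dusp6 and the lowest for Egr2 and Nr4a1, and it lay outside the ATRA range in each.

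Fos and Fosl1 encode subunits of AP-1. Fos rose from 0.393, 0.306 and 1.29 CPM to 8.4, 7.54 and 9.49 CPM (log2 fold change 3.64, SE 0.42, or 4.56 on the log2 scale without CTRL replicate 3), and Fosl1 rose from 2.58, 2.63 and 2.69 CPM to 30.2, 22.2 and 24.7 CPM (log2 fold change 3.28, SE 0.17). Cd69, an early activation marker that keeps T cells in tissue, rose from 39.1, 33.9 and 50.3 CPM to 211, 223 and 198 CPM (log2 fold change 2.36, SE 0.13). Il2ra, a chain of the high-affinity IL-2 receptor, was present in every CTRL library and rose from 350.0, 374 and 327 CPM to 566, 523 and 579 CPM (log2 fold change 0.67, SE 0.07). Myc, which drives growth and is also induced by the TCR, went the other way. It fell from 196, 234 and 189 CPM to 69.2, 62.7 and 62.7 CPM (log2 fold change -1.67, SE 0.09, adjusted p = 1.51e-08). The other 2 called lower, Irf4 and Egr3, are named after their values were seen: Irf4, which sustains effector expansion, fell (116 to 139 CPM in CTRL, 71 to 77 CPM in ATRA), and Egr3, a relative of Egr2, fell (15.4 to 19.9 CPM in CTRL, 8.43 to 11.2 CPM in ATRA).

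Genes of the receptor complex and its first kinases and adaptors were called in both directions. Of 31 tested, 10 were called higher and 11 lower (32.3% and 35.5%, near the background), with a median log2 fold change of -0.01. Lck, the kinase that starts TCR signalling, fell from 294, 331 and 307 CPM to 159.9, 149 and 155 CPM (log2 fold change -1.01, SE 0.07). Themis, an adaptor that tunes the signal, fell from 426, 422 and 417 CPM to 127, 131 and 139.5 CPM (log2 fold change -1.67, SE 0.06). Prkcq, the kinase PKC theta on the path to NF-kB, fell from 179.9, 186 and 180.0 CPM to 52.9, 62.6 and 59.8 CPM (log2 fold change -1.64, SE 0.08). Pag1, an adaptor that holds LCK in check, moved the other way and rose from 5.05, 5.68 and 9.57 CPM to 27.9, 23.4 and 25.7 CPM (log2 fold change 1.92, SE 0.22).

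Among costimulators and the TNF superfamily, 14 of 23 were called higher (60.9%, against 31.8% of all tested genes) and 3 lower. Without CTRL replicate 3 the number called lower was 5. Tnfrsf4, which encodes OX40, rose from 48.7, 57.1 and 42.4 CPM to 225, 207 and 212 CPM (log2 fold change 2.12, SE 0.1). Tnfsf14, which encodes the ligand LIGHT, rose from 1.96, 2.38 and 2.37 CPM to 8.9, 11.6 and 7.78 CPM (log2 fold change 2.07, SE 0.24). Tnfsf8, the CD30 ligand, rose from 4.43, 4.22 and 10.3 CPM to 26.7, 26.1 and 28 CPM (log2 fold change 2.08, SE 0.32). Cytokine receptors and their feedback genes were called higher in 20 and lower in 8 of 35 (57.1% and 22.9%, background 31.8% and 30.8%). Csf2rb, the signalling chain shared by the receptors for IL-3, IL-5 and GM-CSF, rose from 0.112, 0.733 and 0.753 CPM to 13.3, 14.2 and 13 CPM (log2 fold change 4.65, SE 0.39). Il18r1, the receptor chain through which IL-18 raises interferon gamma, fell from 224, 216 and 189 CPM to 3.53, 3.51 and 3.82 CPM (log2 fold change -5.85, SE 0.11, adjusted p = 6.57e-12). Its groups lay far apart, and no member of the receptor list fell further.

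Inhibitory receptors rose in part. Of 22 tested, 11 were called higher and 1 lower (50% and 4.55%, background 31.8% and 30.8%). The other 10 were not called, and the median log2 fold change was 0.96. Without CTRL replicate 3, 16 were called higher. Pdcd1, which encodes PD-1, was at 62.4, 68.4 and 83.5 CPM in CTRL and at 79.1, 62.1 and 68.3 CPM in ATRA, with overlapping groups and no call (log2 fold change -0.03, SE 0.12, adjusted p = 0.829). Its ligand gene Cd274, which encodes PD-L1, rose from 21.4, 17.9 and 21.5 CPM to 156, 153 and 153 CPM (log2 fold change 2.92, SE 0.09, adjusted p = 2.16e-10). Havcr2, which encodes TIM-3, rose from 100.1, 109 and 145 CPM to 259, 249 and 259.6 CPM (log2 fold change 1.12, SE 0.12). The receptor and the ligand of this checkpoint therefore differed: PD-L1 mRNA separated the groups and PD-1 mRNA did not.

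Tigit, a receptor for nectin-family ligands, rose from 33.6, 37.3 and 40.5 CPM to 149, 148 and 145 CPM (log2 fold change 1.99, SE 0.08, adjusted p = 1.83e-09). Ctla4, which competes for the ligands of CD28, rose from 92.9, 96.4 and 105 CPM to 171, 165 and 181 CPM (log2 fold change 0.81, SE 0.07). Lag3, a receptor for MHC class II, rose from 61.2, 68 and 115 CPM to 225, 215 and 216 CPM (log2 fold change 1.42, SE 0.26, adjusted p = 0.00535). In these 3 genes every ATRA library was above every CTRL library. Lilrb4a, a receptor with inhibitory motifs, rose from 38.5, 45.1 and 90.7 CPM to 389, 437 and 407 CPM (log2 fold change 2.82, SE 0.39). Entpd1, the ectonucleotidase CD39, was at 19.8, 22.1 and 41.4 CPM in CTRL and at 32.6, 29.1 and 31.4 CPM in ATRA. It was not called (adjusted p = 0.644), and without CTRL replicate 3 it was called higher (log2 fold change 0.56, adjusted p = 0.00168). The receptor called lower, named after its values were seen, was Btla, which fell (19.8 to 23 CPM in CTRL, 7.38 to 8.38 CPM in ATRA).

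Regulators linked to exhaustion were called higher in 13 and lower in 7 of 23 (56.5% and 30.4%, background 31.8% and 30.8%). The share called lower was thus near the background. Tox, the factor that establishes the exhausted state, was at 0.449, 0.489 and 1.77 CPM in CTRL and at 0.896, 0.628 and 0.803 CPM in ATRA (log2 fold change -0.23, SE 0.59, adjusted p = 0.751), low in all libraries. Rgs16, a brake on G protein signals, rose from 58.4, 68.1 and 74.1 CPM to 302, 276 and 316 CPM (log2 fold change 2.16, SE 0.09). Progenitor and memory genes were called higher in 10 and lower in 7 of 22 tested (45.5% and 31.8%, background 31.8% and 30.8%). Slamf6, a surface marker of progenitor exhausted cells, fell from 25.1, 27.7 and 25.5 CPM to 0.896, 1.15 and 1.71 CPM (log2 fold change -4.37, SE 0.21, adjusted p = 5.93e-09). Its groups were far apart. Tcf7, which encodes the progenitor factor TCF-1, was at 0.73, 0.55 and 7.53 CPM in CTRL and at 0.784, 0.262 and 0.201 CPM in ATRA. It was not called (log2 fold change -2.83, SE 1.21, adjusted p = 0.0846), most of its CTRL signal came from replicate 3, and DESeq2 called it lower (adjusted p = 0.00271). Without CTRL replicate 1 or 2 it was called lower (adjusted p = 0.0499 and 0.0246), and without CTRL replicate 3 it was not (log2 fold change -0.65, adjusted p = 0.47). Bcl6, a repressor of follicular and memory-forming T cells, rose from 6.01, 6.36 and 6.61 CPM to 38.2, 35.3 and 39 CPM (log2 fold change 2.57, SE 0.12). Klf3, a zinc finger repressor, rose from 0.337, 0.672 and 0.699 CPM to 10.6, 10.4 and 9.64 CPM (log2 fold change 4.15, SE 0.29).

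Of 20 effector transcription factors tested, 11 were called higher and 4 lower (55% and 20%, background 31.8% and 30.8%). Maf, which drives Il10 and Il4 in helper cells, rose from 0.281, 0.489 and 0.376 CPM to 7.73, 9 and 9.69 CPM (log2 fold change 4.51, SE 0.3, adjusted p = 9.1e-08). Runx1, a factor of T cell development, rose from 9.32, 7.76 and 10.2 CPM to 37.8, 40.5 and 37.4 CPM (log2 fold change 2.08, SE 0.13). Ikzf2, which encodes Helios, fell from 17, 16.8 and 18.9 CPM to 4.59, 3.24 and 4.27 CPM (log2 fold change -2.12, SE 0.18). All 3 divided the groups without overlap. Eomes, a T-box factor of effector and exhausted cells, was at 8.31, 11.5 and 23.1 CPM in CTRL and at 22.7, 19.6 and 22 CPM in ATRA and was not called (adjusted p = 0.211). Without CTRL replicate 3 it was called higher (log2 fold change 1.11, adjusted p = 0.000157).

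Cytotoxic genes were called higher in 12 and lower in 6 of 24 tested, with a median log2 fold change of 0.59. The shares were 50% and 25%, against 31.8% and 30.8% of all tested genes. Gzma, a granule protease, rose from 357, 358 and 493 CPM to 1054, 1033 and 1092 CPM (log2 fold change 1.4, SE 0.12, adjusted p = 1.23e-05). Gzmb, the main granule protease of killer cells, rose from 711, 744 and 803 CPM to 1127, 1081 and 1092 CPM (log2 fold change 0.55, SE 0.06). Prf1, the pore protein perforin, rose from 138, 145 and 123 CPM to 397, 387 and 400.3 CPM (log2 fold change 1.54, SE 0.07, adjusted p = 4.09e-09). The groups did not overlap for these 3, although the rise of Gzmb was small. Fasl, the death receptor ligand, fell from 73.1, 53.5 and 62 CPM to 33.4, 32.7 and 30.9 CPM (log2 fold change -0.96, SE 0.12). Gzmk, a granule protease of memory-like cells, fell from 7.46, 6.23 and 13.1 CPM to 0.56, 0.733 and 1 CPM (log2 fold change -3.53, SE 0.36). Klrk1, which encodes the activating receptor NKG2D, fell from 119, 109.5 and 131 CPM to 16, 15.6 and 19.4 CPM (log2 fold change -2.82, SE 0.11). Killing genes thus moved in both directions, though the share called lower was below that of all tested genes. Gzmc was at 209.8, 239.5 and 471 CPM in CTRL and at 467, 459 and 447 CPM in ATRA and was not called (adjusted p = 0.234), but without CTRL replicate 3 it was called higher (log2 fold change 1.02, adjusted p = 3.99e-07). Gzmc has near copies beside it in the granzyme cluster, so its counts are uncertain. Without CTRL replicate 3, 17 of the list were called higher.

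**Figure D3:**
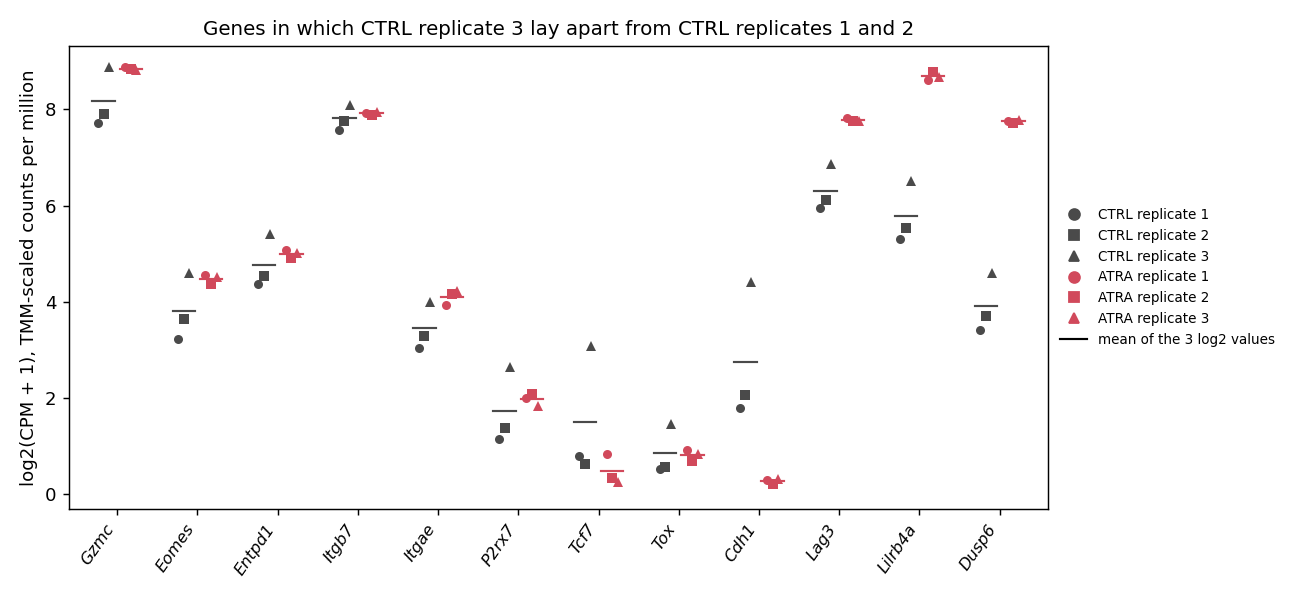
Levels of 12 genes in which CTRL replicate 3 (grey triangle) lay apart from CTRL replicates 1 and 2, as log2(CPM + 1) in each restimulated library, with bars at the mean of the 3 log2 values. For Gzmc, Eomes, Entpd1, Itgb7 and P2rx7 a difference between ATRA and CTRL was called only without that library.

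Genes of homing and egress moved mostly down. Of 25 tested, 13 were called lower and 5 higher (52% and 20%, background 30.8% and 31.8%), with a median log2 fold change of -0.57. Without CTRL replicate 3, 9 were called higher. Next to Ccr9, the integrin chains of gut homing went different ways. Itga4, the alpha4 chain, fell from 566, 501 and 501 CPM to 127, 127 and 126 CPM (log2 fold change -2.05, SE 0.07, adjusted p = 3.29e-10). Itgb7, the beta7 chain, was at 190.2, 216 and 271 CPM in CTRL and at 240.3, 236 and 247 CPM in ATRA (log2 fold change 0.09, SE 0.11, adjusted p = 0.49). Its groups overlapped, and without CTRL replicate 3 it was called higher (log2 fold change 0.24, adjusted p = 0.0134). Itgae, the CD103 chain that pairs with beta7 and binds E-cadherin, was at 7.24, 8.86 and 15 CPM in CTRL and at 14.2, 17 and 17.8 CPM in ATRA (adjusted p = 0.0381), a call that was lost when CTRL replicate 1 or 2 or ATRA replicate 2 or 3 was left out (adjusted p = 0.101, 0.13, 0.0969 and 0.111).

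Several receptors of the list fell and others did not. S1pr1, through which lymphocytes leave lymphoid organs, fell from 83.3, 74.6 and 74.6 CPM to 8.68, 8.48 and 7.58 CPM (log2 fold change -3.23, SE 0.11, adjusted p = 4.02e-10). Ccr7, the lymph node chemokine receptor, fell from 53.9, 58.3 and 67.9 CPM to 11.5, 11.2 and 8.13 CPM (log2 fold change -2.55, SE 0.15). No ATRA library of either gene reached a CTRL library. Cxcr4, the receptor for CXCL12, fell from 112, 109 and 124 CPM to 18.1, 19.5 and 16.5 CPM (log2 fold change -2.67, SE 0.1). Cxcr3, which guides effector cells to inflamed tissue, fell from 21.8, 24.1 and 29.2 CPM to 1.34, 1.05 and 1.41 CPM (log2 fold change -4.3, SE 0.2). Outside the naming rule, and chosen after their values were seen, Cxcr5, which guides cells to follicles, rose (0.112 to 0.376 CPM in CTRL, 0.853 to 1.85 CPM in ATRA), and S1pr4, a relative of S1pr1, was not called (adjusted p = 0.813). Klf2, the factor that drives S1pr1, was below the filter, at 0.168, 0.733 and 1.02 CPM in CTRL and at 0.504, 0.471 and 0.151 CPM in ATRA. Of 27 TGF-beta and residency genes tested, 10 were called higher and 8 lower (37% and 29.6%, near the background of 31.8% and 30.8%). Rgs2, a brake on G protein signals, rose from 4.27, 4.46 and 5.97 CPM to 100.3, 103 and 105 CPM (log2 fold change 4.39, SE 0.13).

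Cell cycle genes fell together. All 30 mitosis genes were called lower and at least 2-fold so, against 12.6% of all tested genes, with a median log2 fold change of -2.37. Mki67, which encodes the proliferation marker Ki-67, fell from 2539.7, 2484 and 2376 CPM to 474, 452 and 440.3 CPM (log2 fold change -2.44, SE 0.06, adjusted p = 5.11e-11). Ccnb2, a cyclin of mitotic entry, fell from 135, 139 and 138 CPM to 12.9, 11.2 and 15.5 CPM (log2 fold change -3.38, SE 0.11). Aurkb, a kinase of chromosome segregation, fell from 82.2, 96.8 and 86.4 CPM to 10.8, 11 and 10.1 CPM (log2 fold change -3.05, SE 0.11). Birc5, its partner survivin, fell by a like amount (log2 fold change -3.06, SE 0.12). Of 34 genes of the G1/S transition and DNA replication, 30 were called lower, 23 of them at least 2-fold. E2f2, an activator of S-phase genes, fell from 23.5, 28.8 and 22.9 CPM to 3.25, 2.25 and 2.31 CPM (log2 fold change -3.27, SE 0.19). Gins1, a subunit of the replicative helicase, fell from 28.1, 27.9 and 27.6 CPM to 3.64, 3.4 and 2.61 CPM (log2 fold change -3.11, SE 0.16). Pola1, the catalytic subunit of DNA polymerase alpha, fell from 380.0, 309 and 343 CPM to 56.5, 59.9 and 52 CPM (log2 fold change -2.62, SE 0.09). The member called higher, named after its values were seen, was the cyclin Ccnd2, which rose (120.2 to 132 CPM in CTRL, 201 to 206 CPM in ATRA).

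Inhibitors of the cycle were mixed as a list, with 11 of 24 CDK inhibitors and p53 targets called higher and 6 lower. These shares were 45.8% and 25%, against a background of 31.8% and 30.8%. Cdkn1a, which encodes p21, rose from 26.3, 29.8 and 33.8 CPM to 106, 114 and 120.1 CPM (log2 fold change 1.92, SE 0.1, adjusted p = 1.37e-08). Plk2, a stress-induced kinase, rose from 24.2, 24 and 23.2 CPM to 171, 168 and 181 CPM (log2 fold change 2.87, SE 0.08). Gadd45a, which responds to DNA damage and stress, rose from 0.954, 1.41 and 1.18 CPM to 7.33, 9.11 and 7.63 CPM (log2 fold change 2.76, SE 0.26). The 3 genes separated the groups without overlap. Of 15 BCL2 family genes tested, 8 were called higher and 3 lower (53.3% and 20%, background 31.8% and 30.8%), with 1 lower without CTRL replicate 3. Bcl2a1a, a survival protein, rose from 0.954, 0.917 and 0.376 CPM to 5.26, 3.09 and 7.98 CPM (log2 fold change 2.86, SE 0.45); it has near-identical copies, so its counts are uncertain. Bcl2l11, which encodes the death-promoting BIM, rose from 3.87, 2.75 and 5.81 CPM to 20.3, 20.7 and 21.4 CPM (log2 fold change 2.32, SE 0.23), as did Bcl2l1, which encodes the protective BCL-XL (log2 fold change 1.21, SE 0.1). Bcl2, the founding protective member, named after its values were seen, fell (25.7 to 32.8 CPM in CTRL, 21.6 to 24 CPM in ATRA).

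Genes of growth fell to a smaller extent. Of 32 Myc targets and ribosome biogenesis genes, 20 were called lower (62.5%) and 2 higher, but the median log2 fold change was only -0.29, and 4 remained called lower when a 1.5-fold change was required. Polr1b, a subunit of RNA polymerase I, fell from 159.5, 157 and 145 CPM to 61.4, 64.4 and 69.4 CPM (log2 fold change -1.24, SE 0.08). Fbl, the rRNA methylase fibrillarin, fell from 211, 244 and 208 CPM to 109, 109.9 and 104 CPM (log2 fold change -1.04, SE 0.08). Of 38 nuclear genes of oxidative phosphorylation, 20 were called lower and 9 higher (52.6% and 23.7%, background 30.8% and 31.8%), none by 2-fold. Of 13 genes encoded by mitochondrial DNA, 9 were called higher and 1 lower (69.2% and 7.69%, background 31.8% and 30.8%). With a required 1.5-fold change, no gene of either list was called. Ndufb10, a subunit of complex I, fell from 59.4, 59.2 and 55.6 CPM to 39.7, 32.9 and 31.7 CPM (log2 fold change -0.74, SE 0.11). mt-Nd4, a mitochondrially encoded subunit of the same complex, rose from 734, 718 and 706 CPM to 919, 942 and 982 CPM (log2 fold change 0.4, SE 0.05).

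**Figure D4:**
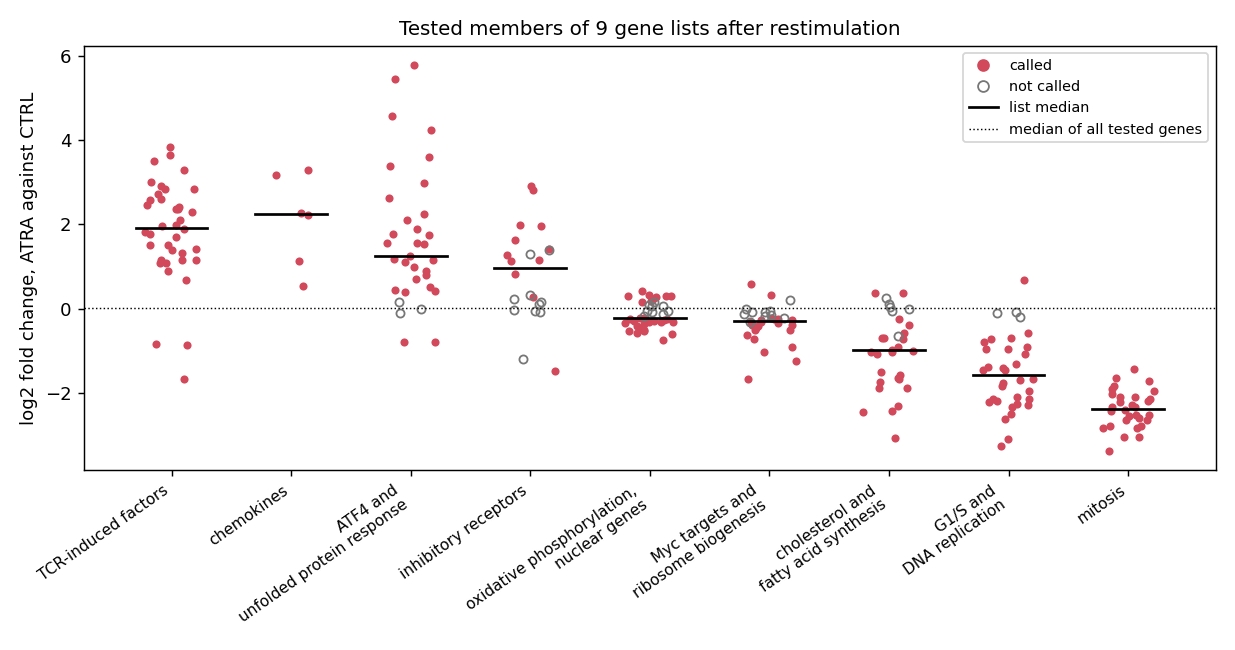
Log2 fold change, ATRA against CTRL, of every tested member of 9 gene lists, with filled points for called genes, open points for genes not called and a bar at each list's median. The medians run from 2.26 for chemokines and 1.93 for TCR-induced factors to -2.37 for mitosis, and the dotted line marks the median over all tested genes.

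Transcripts of cholesterol and fatty acid synthesis were lower for most enzymes. Of 31 genes tested, 23 were called lower (74.2%), 15 of them at least 2-fold, and 2 were called higher. Fads2, a desaturase of polyunsaturated fatty acids, fell from 66.6, 65.9 and 40.0 CPM to 7.28, 6.91 and 6.17 CPM (log2 fold change -3.08, SE 0.2, adjusted p = 5.43e-07). Scd1, the desaturase that makes oleate, fell from 70.6, 71.8 and 37.1 CPM to 10.1, 12 and 11.2 CPM (log2 fold change -2.43, SE 0.26). A member called higher, named after its values were seen, was Insig1, the sterol sensor that holds SREBP back, which rose (15.9 to 22.7 CPM in CTRL, 21 to 28.3 CPM in ATRA); without CTRL replicate 3, 1 member was called higher. Of 8 genes of sterol efflux, 4 were called higher and 3 lower (50% and 37.5%, background 31.8% and 30.8%). The exporters diverged: Abca1 rose from 1.74, 1.71 and 3.82 CPM to 6.21, 6.07 and 5.02 CPM (log2 fold change 1.24, SE 0.33) and Abcg1 fell from 10.9, 13.3 and 13.9 CPM to 3.58, 2.46 and 6.38 CPM (log2 fold change -1.61, SE 0.3).

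Both groups had been at low oxygen, and the genes of the hypoxia response split. Of 24 tested, 11 were called higher and 9 lower (45.8% and 37.5%, background 31.8% and 30.8%), with a median log2 fold change of 0.19. Vegfa, the vessel growth factor, rose from 4.66, 4.46 and 6.29 CPM to 97.6, 96.7 and 93.8 CPM (log2 fold change 4.22, SE 0.13, adjusted p = 2.37e-10). Ndrg1, a stress and differentiation gene, rose from 10.2, 9.17 and 14.2 CPM to 188, 177 and 193 CPM (log2 fold change 4.05, SE 0.14, adjusted p = 2.22e-09). Pygl, which breaks down glycogen, fell from 5.84, 7.46 and 16.1 CPM to 2.52, 1.83 and 1.31 CPM (log2 fold change -2.38, SE 0.42). Vegfa and Ndrg1 thus moved far more than the list as a whole. Glycolysis genes were called higher in 7 and lower in 11 of 24 tested (29.2% and 45.8%, background 31.8% and 30.8%), and 3 of these calls reached 2-fold. Slc2a1, the glucose transporter GLUT1, rose from 68.2, 72.7 and 66.1 CPM to 125, 123 and 126 CPM (log2 fold change 0.85, SE 0.07). Slc2a3, the transporter GLUT3, rose from 99.5, 107 and 145 CPM to 241, 245 and 269.9 CPM (log2 fold change 1.1, SE 0.13). Pdk1, the kinase that keeps pyruvate out of mitochondria, fell from 73.6, 65.2 and 64.8 CPM to 18.1, 22.3 and 15.7 CPM (log2 fold change -1.86, SE 0.13).

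The amino acid and endoplasmic reticulum stress response was higher. Of 33 ATF4 and unfolded protein response genes, 28 were called higher (84.8%), 20 of them at least 2-fold, and 2 lower, with a median log2 fold change of 1.24. Nupr1, a stress-induced chromatin protein, rose from 0.561, 0.489 and 0.806 CPM to 35.1, 34.2 and 34.9 CPM (log2 fold change 5.78, SE 0.19, adjusted p = 2.4e-10). Slc7a11, the cystine importer, rose from 0.505, 0.672 and 0 CPM to 18.1, 16.3 and 16.4 CPM (log2 fold change 5.45, SE 0.51, adjusted p = 1.71e-05); the Slc7a11 log2 fold change was 4.83 without CTRL replicate 3 and 6.05 without CTRL replicate 2. Atf5, a relative of ATF4, rose from 0.786, 0.55 and 1.13 CPM to 15.5, 16.4 and 15.5 CPM (log2 fold change 4.24, SE 0.25, adjusted p = 2.9e-08). The 2 called lower, named after their values were seen, were Sdf2l1, an endoplasmic reticulum chaperone partner, which fell (52.4 to 65.8 CPM in CTRL, 33 to 35.8 CPM in ATRA), and Eif2ak3, the stress sensor PERK, which fell (108 to 109.6 CPM in CTRL, 60.8 to 65.8 CPM in ATRA). Of 16 heat shock genes tested, 5 were called higher and 2 lower, shares of 31.2% and 12.5% against a background of 31.8% and 30.8%. With the replicate block 3 of them were called higher. Hmox1, which degrades haem under oxidative stress, rose from 9.99, 11.4 and 10.4 CPM to 29.5, 29.5 and 29.2 CPM (log2 fold change 1.47, SE 0.12).

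Interferon-stimulated genes were called higher in 16 and lower in 6 of 31 tested (51.6% and 19.4%, background 31.8% and 30.8%). Ifit2 and Oas3, antiviral effectors, fell: Ifit2 was at 22.5, 13.1 and 17.5 CPM in CTRL and at 2.8, 4.71 and 2.66 CPM in ATRA (log2 fold change -2.38, SE 0.27), and Oas3 was at 21.6, 26.6 and 27.3 CPM in CTRL and at 3.86, 2.72 and 3.51 CPM in ATRA (log2 fold change -2.9, SE 0.18). Iigp1, an interferon gamma induced GTPase, rose from 0.73, 0.611 and 3.6 CPM to 9.01, 7.48 and 7.33 CPM (log2 fold change 2.25, SE 0.6), a call lost with no filter on low counts (adjusted p = 0.0558) and a log2 fold change of 3.54 without CTRL replicate 3. MHC and antigen processing genes were called lower in 8 and higher in 2 of 22 (36.4% and 9.09%, background 30.8% and 31.8%). Without CTRL replicate 3, 7 were called higher. Psmb9, a subunit of the immunoproteasome, fell from 83.9, 102 and 109.9 CPM to 50.3, 45.1 and 41.8 CPM (log2 fold change -1.11, SE 0.11). Nlrc5, the activator of MHC class I genes, fell from 301, 374 and 381 CPM to 162, 165 and 172 CPM (log2 fold change -1.08, SE 0.09). H2-T23, a non-classical class I gene with near copies and so with uncertain counts, rose from 168, 198 and 211 CPM to 481, 476 and 477 CPM (log2 fold change 1.31, SE 0.08). Of 8 GIMAP genes, small GTPases of lymphocyte survival, 5 were called lower and 1 higher (62.5% and 12.5%, background 30.8% and 31.8%). Gimap7 fell from 102, 95.1 and 97.3 CPM to 26.5, 28.8 and 30.4 CPM (log2 fold change -1.78, SE 0.09).

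Several genes with no count in CTRL were among the 8 named for the largest fitted rises, an order that depends on the prior count. Ptgs2, the prostaglandin-forming enzyme COX-2, had no count in CTRL and was at 32, 35.4 and 36.1 CPM in ATRA, at least 202-fold higher. Mmp13, a collagenase, had no count in CTRL and was at 20.5, 18.1 and 19.1 CPM in ATRA, at least 113-fold higher. Sox9, a factor of cartilage and glia, had no count in CTRL and was at 8.57, 8.48 and 7.03 CPM in ATRA, at least 46.9-fold higher. Each was present at a like level in all 3 ATRA libraries and in no CTRL library, where the naming rule had asked for no overlap of the groups. Stc1, a secreted hormone-like glycoprotein, was likewise absent from the CTRL counts and at 5.93, 6.17 and 7.63 CPM in ATRA (at least 38.5-fold higher). Stfa2 and Stfa3, cysteine protease inhibitors with near-identical copies and so with uncertain counts, were at 69.4, 67.5 and 52.2 CPM and at 14.3, 13.8 and 10.8 CPM in ATRA, with no count in CTRL. Among all tested genes, 86 had no count in any CTRL library and 7 had none in any ATRA library.

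The 8 leading falls included genes of adhesion and guidance. Dscam, a neural adhesion molecule, was at 9.54, 9.35 and 12.3 CPM in CTRL and had no count in ATRA, at least 65.5-fold lower. Chl1, another neural adhesion molecule, was at 6.57, 4.16 and 6.93 CPM in CTRL and at 0, 0.0523 and 0 CPM in ATRA, a ratio of 339 with a 95% exact counting interval of 60.3 to 13412 of CTRL to ATRA. Sema4a, a semaphorin that acts on T cell priming, fell from 101, 122 and 125 CPM to 1.51, 1.47 and 2.06 CPM (log2 fold change -6.1, SE 0.16, adjusted p = 5.94e-11). The naming rule took only genes whose groups did not overlap, so the separation of these 3 genes was a condition of naming them. Clec12a, an inhibitory lectin of myeloid cells, fell from 28.9, 23.6 and 33 CPM to 0.224, 0.471 and 0.351 CPM (log2 fold change -6.32, SE 0.25). Cmah, which hydroxylates sialic acid, fell from 47.7, 50.7 and 37.5 CPM to 0.448, 0.314 and 1.1 CPM (log2 fold change -6.15, SE 0.3). Trp73, a relative of p53, fell from 22.1, 24.9 and 16.5 CPM to 0.224, 0.471 and 0.0502 CPM (log2 fold change -6.39, SE 0.39). Of these values near the floor, the Cmah log2 fold change was -6.87 without ATRA replicate 3 and the Trp73 log2 fold change was -7.24 without ATRA replicate 2, and the count of Chl1 in ATRA lay in replicate 2.

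Markers of cells other than T cells moved beside these results. The summed level of 19 GL261-like glioma markers was 1184 to 1378 CPM over the CTRL libraries and 1596 to 1698 CPM over the ATRA libraries, carried by genes that activated T cells also express, such as Vim (754 to 947 CPM and 900.4 to 964 CPM), while Col1a2 had no count and Nes, Col1a1, Col3a1, Sparc, Cspg4 and S100b were below 1 CPM. Of its 10 tested members, 5 were called higher and 2 lower (50% and 20%, background 31.8% and 30.8%). Thbs1, a matrix glycoprotein of that list, rose from 0, 0.0611 and 0.323 CPM to 24.5, 25.4 and 27.2 CPM (log2 fold change 7.53, SE 0.4, or 9.47 on the log2 scale without CTRL replicate 3). Timp1, a protease inhibitor, rose from 0.337, 0.611 and 0.591 CPM to 14.3, 13.7 and 15.3 CPM (log2 fold change 4.8, SE 0.26). Igfbp7, a secreted binding protein, went the other way and fell from 23.3, 20.1 and 13.3 CPM to 2.07, 1.83 and 1.46 CPM (log2 fold change -3.4, SE 0.25). The B cell markers together made 22.7 to 29.0 CPM in a CTRL library and 49.8 to 54.0 CPM in an ATRA library. Of these markers, 6 of 6 tested were called higher (100%, background 31.8%). Of the defining members, Ms4a1 was low, with no count in CTRL and 2.18 to 3.21 CPM in ATRA. Ebf1, a B cell factor, was called higher (adjusted p = 0.0473) but lost its call in 11 of 13 alternatives, with an adjusted p of 0.0616 under the replicate block. Macrophage markers made 11.6 to 17.0 CPM in CTRL against 23.3 to 24.4 CPM in ATRA, with Csf1r, C1qa, C1qc and Fcgr1 at 0 in all libraries, and dendritic cell markers made 132 to 184 CPM against 112 to 116 CPM, with Cd209a and Siglech at 0. Single genes also carried most of 2 other sums: Cd68 for macrophages (mean 12.7 CPM in CTRL, 22.4 CPM in ATRA) and Ighm for B cells (21 and 36.8 CPM). Of 8 dendritic cell markers tested, 4 were called lower and 1 higher (50% and 12.5%, background 30.8% and 31.8%). Those lower included the homing receptor Ccr7 (mean 60 CPM in CTRL, 10.3 CPM in ATRA), Cd74 (21.7 and 10.6 CPM) and Batf3 (9.45 and 0.836 CPM). NK cell markers made 16.8 to 29.7 CPM against 29.6 to 34.0 CPM, with Klra8 at 0. The part of these cells in the results was not tested.

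The other 6 libraries of the series hold the same cells after the co-culture without restimulation, 3 with ATRA and 3 with DMSO, and they allow the ATRA effect to be compared between states. Restimulated libraries come from batches of their own, so state and batch cannot be told apart. Of 12364 genes in both count tables that passed the filter, 6077 (49.2%) differed in their ATRA effect between states by the interaction test. In 2225 of these the effects had opposite signs with no overlap of ATRA and CTRL in either state: 1046 were higher in ATRA before and lower after, and 1179 were lower before and higher after. The levels in this comparison are on a scaling common to the 12 libraries.

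The cytokine genes Ifng and Il3, the chemokine gene Xcl1 and the activation gene Egr2 were in the latter set. Before restimulation Ifng was at 912, 714 and 708 CPM in CTRL and at 82.1, 71.6 and 10.6 CPM in ATRA, and after it at 57.1, 53.9 and 59.3 CPM in CTRL and at 379, 389 and 384 CPM in ATRA. ATRA replicate 3 stood apart before restimulation, in Ifng at the lowest value, and the number of genes in the interaction was 7046 without that library. It stood apart in other genes too, such as Ccnb2 (53.6, 46.7 and 11.9 CPM in ATRA before) and Cxcr4 (213, 258 and 484 CPM). For Ifng, CTRL was the higher group before and the lower group after, with log2 effects of -3.83 before and 2.76 after (difference 6.58, SE 0.74, adjusted p = 2.67e-05). Before restimulation Il3 was at 6.95, 11.9 and 11.2 CPM in CTRL and at 0.538, 0.223 and 0.141 CPM in ATRA, against the restimulated levels given earlier (log2 effects -5.0 before and 8.86 after). Xcl1 was at 614, 378 and 410.3 CPM in CTRL and at 1.41, 1.34 and 0.518 CPM in ATRA before (log2 effects -8.72 before and 2.23 after, difference 10.95, SE 0.37, adjusted p = 4.33e-09). Egr2 was at 249.7, 189.7 and 198 CPM in CTRL and at 5.59, 5.12 and 4.38 CPM in ATRA before (log2 effects -5.4 before and 2.7 after, difference 8.1, SE 0.25, adjusted p = 1.46e-09). For each of these 4 genes the mean of CTRL was lower after restimulation than before and that of ATRA higher. Over the TCR-induced factors the median ATRA effect was -0.56 before and 1.92 after, and over chemokines -4.70 before and 2.23 after.

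The homing and egress receptors Cxcr4, S1pr1 and Itga4 turned the other way. Cxcr4 was at 9.63, 9.97 and 9.66 CPM in CTRL and at 213, 258 and 484 CPM in ATRA before restimulation (log2 effects 5.03 before and -2.68 after, difference -7.71, SE 0.37, adjusted p = 5.73e-08). S1pr1 was at 13.2, 17.1 and 17.3 CPM in CTRL and at 67.6, 66.2 and 91.1 CPM in ATRA before (log2 effects 2.24 before and -3.24 after, difference -5.48, SE 0.22, adjusted p = 7.2e-09). Itga4 was at 99, 129 and 112 CPM in CTRL and at 248, 262 and 345 CPM in ATRA before (log2 effects 1.33 before and -2.05 after, difference -3.38, SE 0.19, adjusted p = 9.52e-08). In each, every ATRA library lay above every CTRL library before restimulation and below it after. For Cxcr4 the lack of overlap in both states was a condition of the naming rule. Itgb7 and P2rx7 lay above CTRL without overlap before and overlapped after, with log2 effects of 3.52 before and 0.09 after (difference -3.43, SE 0.22, adjusted p = 2.71e-07) and of 7.56 before and 0.1 after (difference -7.46, SE 0.65, adjusted p = 4.26e-06). Pdcd1 had log2 effects of -3.03 before and -0.04 after (difference 2.99, SE 0.65, adjusted p = 0.00257).

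Some genes kept the direction of their effect. Gzma had log2 effects of 1.15 before and 1.39 after, and the difference between them was not called (adjusted p = 0.628). The median effect over mitosis genes was -0.94 before and -2.38 after, and Mki67 had effects of -0.89 before and -2.44 after (difference -1.56, SE 0.28, adjusted p = 0.000608). Before restimulation Mki67 was at 1871, 1781 and 1859 CPM in CTRL and at 1243, 1130.4 and 607 CPM in ATRA. ATRA replicate 3 was the lowest, so the Mki67 effect before rested in part on that library. Other lists differed between the states. The ATF4 and unfolded protein response list had a median effect of 0.04 before and 1.2 after. Of its 32 members tested for the interaction, 25 had a higher effect after restimulation and 2 a lower one. The hypoxia list had a median effect of 1.79 before and 0.18 after. Of its 26 members tested, 2 had a higher effect after and 19 a lower one. Over all genes, 49.2% differed in either direction.

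**Figure D5:**
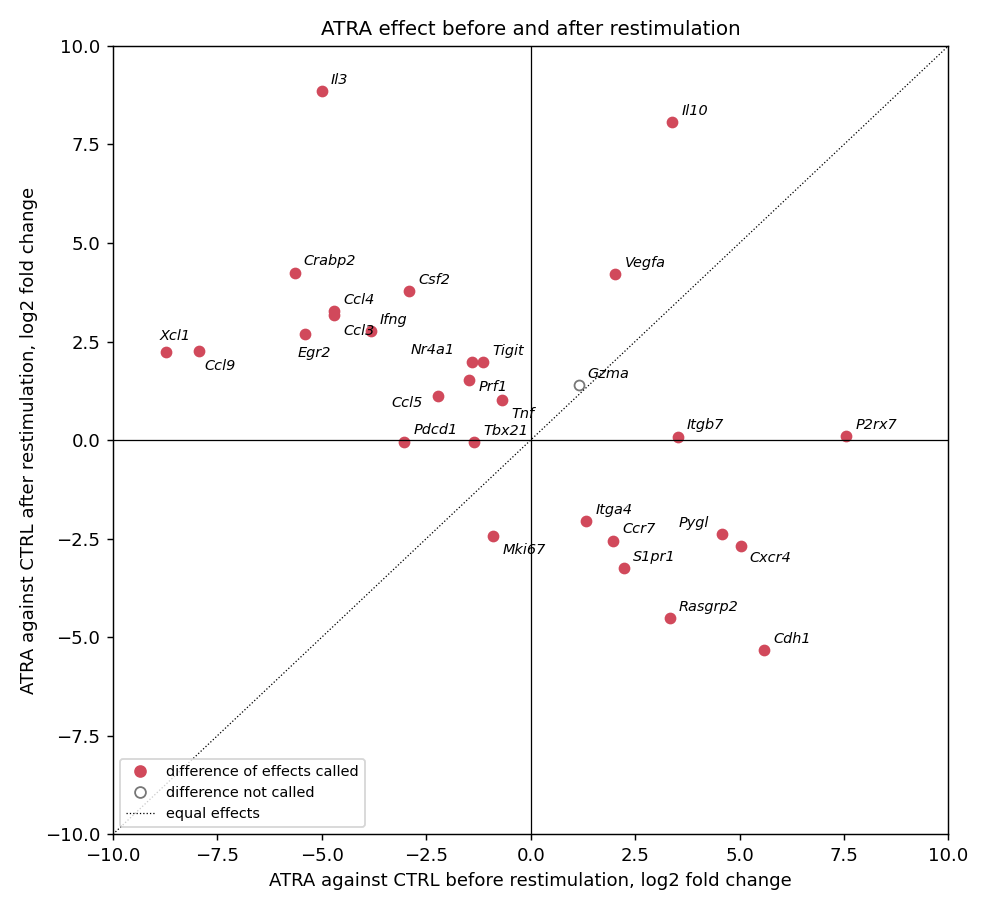
ATRA effect (log2 fold change against CTRL) on 29 genes before restimulation on the horizontal axis and after it on the vertical axis; filled points mark genes whose effects differed by the interaction test and the dotted line marks equal effects. Cytokine, chemokine and activation genes such as Il3 and Ifng lie at the upper left and Cxcr4, S1pr1 and Itga4 at the lower right, while Gzma lies near the line of equal effects.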

How the data were processed

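RNA was measured by stranded total RNA sequencing in 12 libraries, of which the 6 restimulated ones make the main comparison. The authors deposited raw counts per gene symbol for the restimulated and for the other libraries in separate tables, and a table of TPM values (transcript abundances corrected for length and depth). The submitters' processing notes name build mm39 and the tools Salmon 1.10.3, STAR 2.7.11b, DESeq2 1.42.1 and cutadapt 5.0. The annotation and the strand setting of the counting are not stated in the sources used here, so overlapping antisense genes may share counts. Of 35588 rows, 32 repeated a symbol and the row with the largest total was kept, leaving 35556 symbols.

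Counts were tested with edgeR 4.0.16 in R 4.3.3 (TMM scaling, filterByExpr by group, robust quasi-likelihood fit, Benjamini-Hochberg adjustment over 12783 genes, no replicate block), with calls at an adjusted p under 0.05. The interaction was fitted on all 12 libraries over the symbols of both tables. Alternatives were other scalings, no filter, the replicate block, glmTreat against 1.5-fold, DESeq2 1.42.0, limma 3.58.1 on log2(TPM + 0.5), whose columns name only the group, and leaving out each library. Bounds use a floor of 3 counts per library; floors and 95% intervals cover counting error only. The script was tested on simulated data. Replicate libraries differed beyond sampling noise (chi-square over its degrees of freedom at least 5.81), so none repeats another.

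Replicate numbers pair the libraries, since the labels give each number a batch; once group means were removed, the 3 same-numbered pairs had correlations of -0.035, -0.095 and 0.040. Named genes were a list fixed by name, the 8 largest called changes per direction with at least 5 CPM and no overlap (leaving out predicted, clone-named, Rik, pseudogene and receptor segment names), the 3 largest called members of each gene list and the 5 largest interaction differences per direction; a few that meet the rule are not reported here. Members and lists were chosen with earlier results of these data known. Promoters were read from a RefSeq table by symbol, and a motif was counted on both strands.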

Additional observations from a re-analysis of the deposited data

Results flagged for a closer look

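The 25 genes given here are drawn from those fixed by name and from the 5 largest differences in each direction, and in each the ATRA effect after restimulation differed from that before it by the interaction test, with opposite signs and no overlap of ATRA and CTRL in either state; 2225 genes in all met that description. The values are the log2 effect after minus that before, and state and batch cannot be told apart. Among cytokines and chemokines the difference was 6.58 for Ifng, 13.86 for Il3, 6.69 for Csf2, 1.71 for Tnf, 7.88 for Ccl3, 7.98 for Ccl4, 3.32 for Ccl5 and 10.95 for Xcl1. It was 16.08 for Il1a, 13.02 for Scg2, 13.38 for Scimp and 12.71 for Trpm6, which had a group at or near 0, so that the fitted size depends on the prior count. Among activation, cytotoxic, checkpoint and retinoid genes it was 8.10 for Egr2, 3.39 for Nr4a1, 3.01 for Prf1, 3.12 for Tigit, 9.90 for Crabp2 and -1.26 for Rarg. No call within a state was required, and Rarg was not called after restimulation (log2 fold change -0.37, SE 0.28, adjusted p = 0.282). Adhesion and homing genes went the other way, with -10.92 for Cdh1 (whose log2 fold change after restimulation was -5.32, and -3.71 without CTRL replicate 3), -7.71 for Cxcr4, -3.38 for Itga4 and -5.48 for S1pr1. The remaining falls were -7.14 for Igfbp4, -7.57 for Krt18 and -7.85 for Rasgrp2. Some of these genes also had group means near the floor, so their fitted sizes depend on the prior count too. In CTRL before and ATRA after, the means were 0.333 and 0.23 CPM for Igfbp4 and 0.15 and 0.303 CPM for Krt18. For Il3 they were 0.301 CPM in ATRA before and 0.241 CPM in CTRL after. Cdh1 was at 0.21 CPM in ATRA after.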

How the results depend on the processing

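The number of called genes was 7998 and lay between 6785 (limma on TPM) and 8266 (no filter on low counts) under the alternatives other than glmTreat; it was 7751 (3968 higher, 3783 lower) with the replicate block and 7247 to 8185 with a library left out. A required 1.5-fold change (glmTreat) left 3829 genes, 1954 higher and 1875 lower. Differences of at least 2-fold numbered 2826 to 3695. The interaction gave 5361 to 7046 genes against 6077, and 5403 with the replicate block. Over the named genes and 13 alternatives, 2042 values kept their direction and side of the threshold, 36 lost the call, 10 gained it and 12 changed sign, none of them called in either fit. With TPM the log2 fold changes of changed sign were 0.012 for Cd3e, 0.04 for Pdcd1 and 0.086 for Tbx21. With a library left out, the log2 fold change ranged from -0.155 to 0.001 for Cd3e, -0.038 to 0.559 for Entpd1, -0.017 to 0.238 for Itgb7, -0.231 to 1.049 for P2rx7, -0.129 to 0.085 for Pdcd1, -0.105 to 0.023 for Tbx21 and -0.557 to 0.708 for Tox; the upper end came without CTRL replicate 3 except for Tbx21 (without CTRL replicate 2). The adhesion gene Cdh1, called lower (adjusted p = 0.0137), was not called without any 1 ATRA library (adjusted p = 0.0622 to 0.0757). CD8 co-receptor gene Cd8a was called lower with library totals alone (adjusted p = 0.0446) and without CTRL replicate 1 (adjusted p = 0.00431). With glmTreat, lists of small changes lost most calls: of 20 oxidative phosphorylation genes called lower 0 remained called, and of 20 Myc targets 4. Genes under the floor of 0.151 to 0.183 CPM are not resolved at this depth. The cause of the lost calls was not tested.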
